A study of Amphiura filiformis with 28 samples.

Results

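The genes described here are the curated immune genes on chromosome 1 of the brittle star *Amphiura filiformis*, an echinoderm that regrows lost arms. They were taken from the readable part of the study's gene table, which holds 1193 genes of chromosome 1 and may not hold all of them. Of these, 75 stand on an immune list that was curated from protein domains and from genes known in other animals. After 3 genes were set aside, 72 remained. All 72 have values among the 30090 genes measured in arm explants, and 67 have values among the 28263 genes of the regeneration time course. The gene names are best matches to proteins of other species, so they give a likeness and not a proven function.

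RNA-seq of whole, wild-type and untreated arm tissue was done in 2 experiments. In the explant experiment, arms were severed from the body and cut again at the tip, which left 1 wound that regenerates (distal), 1 wound that only heals (proximal) and an uncut stretch between them (medial). At 5 days post amputation (dpa) there were 3 distal, 3 proximal and 3 medial samples, and at 3 dpa there were 4 distal, 3 proximal and 4 medial samples, each from a batch of many explants pooled together. The medial segments come from the same severed arms as the wounded ends, so they are not uninjured animals. The time course has 1 pooled sample each of a control, 48 and 72 h post amputation (hpa), stages 3, 4 and 5, and the 50% D and 50% P samples, which are the distal and proximal parts of regenerates at the 50% stage. The study describes the control as non-regenerating arm, whereas its label gives the tissue as a regenerating explant.

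Echinoderms have no antibodies, and their defence rests on innate receptors and secreted factors. Scavenger receptor cysteine-rich (SRCR) proteins, Toll-like receptors and C-type lectins bind microbial or damaged material. Toll/interleukin receptor (TIR), NACHT, TRAF and caspase-type proteins carry the signal inside the cell. Complement-like proteins tag targets, and interleukin 17 (IL17) is a cytokine that, in sea urchin larvae, is known from the gut response to bacteria.

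By their protein domains, the 72 genes fell into 15 SRCR genes, 15 receptor tyrosine kinase-like genes, 9 genes for intracellular sensing and signalling, 9 matrix and adhesion type genes, 6 lectin, complement-like and protease genes, 5 IL17 or growth factor genes, 4 adhesion G protein-coupled receptor (GPCR) genes, 2 transcription factor genes and 7 others. The kinase-like group holds Tie1-like and Tie2-like genes, named after the angiopoietin receptors of vertebrates, together with Cad96-43 and Ror2, and all 15 of its genes also stand on the kinase list of the study. Some of the genes lie close together. Of the pairs with at most 5 genes between them, 34 in all, 19 joined genes of the same domain group, and in 10 pairs no other gene lay between. How many such pairs would arise from a random placement of the genes was not tested. Lece-19 (57165697 to 57166276) and Lece-18 (57166954 to 57167742), a pair of C-type lectin genes on the minus strand, are separated by 678 bases. Where neighbours are close copies, the pseudo-alignment shares reads between them and their split is uncertain.

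Values are TPM, a transcript's share of a library corrected for its length, which the authors rescaled between samples by TMM, a trimmed mean of expression ratios. In explants the median of the genes' means over the 20 samples was 1.77, against 1.90 for all genes. For the test, a gene had to reach 1 in 3 or more samples, which 45 of the 72 did. The other 27 (37.5%, against 28.7% of all genes) had no value above 1.85, and 20 of them stayed under 1 in every sample. The SRCR genes were mostly low, with a median mean of 0.565 and with 7 of 15 tested. At the top, the transcription factor gene Atf4 averaged 799, and Coca1-3, Unchar_13704, Lece-19 and Tlr2-17 averaged 24.9, 22.0, 18.2 and 15.2.

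Libraries differed in how much they detected. Between 1990 and 7439 genes were listed at 0, most in 5 dpa medial replicate 2, 3 dpa medial replicate 2 and 5 dpa proximal replicate 4, and the last of these also has the highest column total, 2976429. Depth cannot be read from such values. Of 19 neuronal marker genes, between 15 and 18 were above 0 in each library, and of 12 markers of ciliated cells between 10 and 12 were. At 5 dpa the summed neuronal markers ran from 172 to 217 in distal, from 252 to 325 in proximal and from 283 to 423 in medial samples. At 3 dpa they ran from 213 to 242 in distal, from 213 to 296 in proximal and from 296 to 392 in medial samples.

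Which immune genes differ between a regenerating end, a healing end and the uncut stretch was tested with limma on log2(value + 1), with Benjamini-Hochberg adjustment over all 21442 genes tested. A gene was called at an adjusted p under 0.05 and a log2 fold change beyond 1 in either direction. Few of the 45 genes were called. In distal against medial segments, 3 genes were lower and none higher at 5 dpa (2.05% of all genes were called lower and 3.42% higher), while at 3 dpa 1 gene was higher and none lower (1.70% and 0.284% of all genes). Proximal against medial segments gave 1 gene, higher, at 5 dpa and the same gene, also higher, at 3 dpa (1.52% and 0.438% of all genes called higher). Distal against proximal segments gave that gene again, lower at both 5 and 3 dpa (0.947% and 0.173% of all genes called lower).

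More of the genes had their highest mean in medial than in either wounded segment. At 5 dpa, 6 of the 45 tested genes (13.3%, against 33.6% of all genes tested) had their highest group mean in distal segments and 27 (60.0%, against 39.1%) in medial segments. At 3 dpa the corresponding counts were 7 (15.6%, against 33.8%) in distal and 23 (51.1%, against 37.2%) in medial segments. Groups that did not overlap, with every distal sample below every medial sample, were found for 12 genes at 5 dpa (26.7%, against 12.3% of all genes) and for 9 of the 45 genes at 3 dpa (against 7.97% of all genes). The reverse, with every distal sample above, held for 3 genes at 5 dpa (6.67%, against 15.5%) and 5 at 3 dpa (11.1%, against 10.1%). The median log2 fold change of the 45 genes in distal against medial segments was -0.21 at both 5 and 3 dpa, against 0.01 for all genes. When every library was rescaled to the same total, the median of all genes itself moved to -0.12 at 5 dpa, and that of the 45 genes to -0.32. The 5 dpa median of the 45 genes also rested on single libraries, at -0.09 without 5 dpa medial replicate 1 and -0.36 without 5 dpa medial replicate 2 (0.04 and -0.04 for all genes). In these bulk samples, fewer cells of a type and less RNA per cell cannot be told apart.

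**Figure D1:**
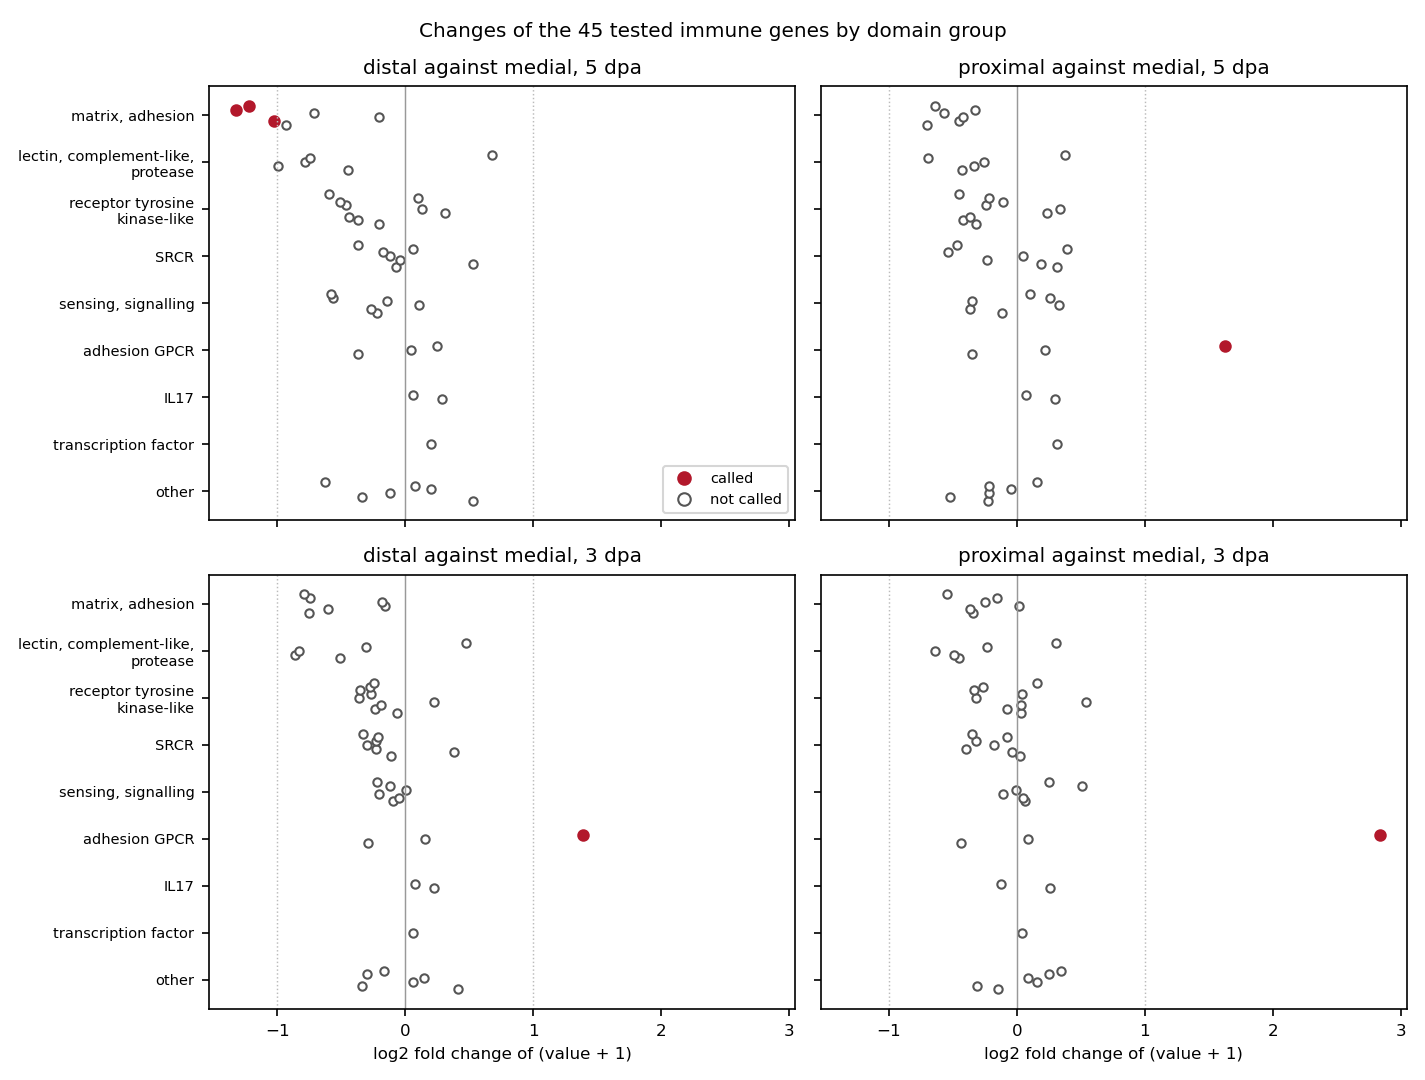
Log2 fold changes of (value + 1) for the 45 tested genes, one point per gene, in rows by domain group, for distal and proximal segments each against medial segments at 5 and 3 dpa. Filled points were called. All 6 matrix and adhesion type genes lie left of 0 in distal segments at both days. In the adhesion GPCR row, Agrg7-5 stands alone on the right in proximal segments at both days and in distal segments at 3 dpa. It is at 2.84 in proximal segments at 3 dpa, and at 0.25 and not called in distal segments at 5 dpa.

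Agrg7-5 (AFI31186, 37234326 to 37259850 on the plus strand) was the gene called most often. Its domains are those of an adhesion GPCR, a receptor class with a large extracellular part that is cut at a GPS site and a membrane-spanning part that signals through G proteins. At 3 dpa it was high in the healing end, at 8.03, 8.79 and 10.996 in the 3 proximal samples, against 0.61, 0.40, 0.45 and 0.27 in the 4 medial samples. The 4 distal samples stood between, at 2.11, 2.48, 2.51 and 4.07. The 3 groups do not overlap.

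The ratio of means at 3 dpa was 21.6 for proximal against medial segments (log2 fold change of value + 1, 2.84 ± 0.21 SE; limma adjusted p = 4.85e-07). For distal against medial segments it was 6.50 (1.39 ± 0.19 SE, limma adjusted p = 0.000139). Distal segments held 0.301 of the proximal level (-1.45 ± 0.21 SE, limma adjusted p = 0.00231), so the healing end exceeded the regenerating end as well as the uncut stretch. The scale adds 1 to each value and understates ratios at levels this low.

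At 5 dpa the gene remained high in proximal segments, with 5.57, 2.74 and 2.62, against 0.37, 0.62 and 0.36 in medial segments. Distal segments, with 0.64, 0.96 and 0.58, overlapped medial ones. Proximal against medial segments was called (1.63 ± 0.22 SE, limma adjusted p = 0.000437), and so was distal against proximal segments (-1.38 ± 0.22 SE, limma adjusted p = 0.00208). Distal against medial segments was not (0.25, 95% interval -0.21 to 0.72). Both 5 dpa calls were lost when only the 2 groups compared were fitted (limma adjusted p = 0.174 against medial and 0.142 between the ends), with the fold changes kept. Calls over all genes fell in these fits as well, from 419 to 15 and from 303 to 10. At the same total for every library, the difference between the ends at 5 dpa was -1.12 (limma adjusted p = 0.0652).

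Agrg7-5 passed the filter on low values in 10 samples, all of them from proximal segments or from distal segments at 3 dpa. Its namesake Agrg7-4 (AFI29796, 32963538 to 32983009), which has adhesion GPCR domains and a peptidase domain, was not called. It averaged 3.01 ± 0.62 in distal, 3.50 ± 0.31 in proximal and 2.87 ± 0.57 in medial segments at 5 dpa (SD, n = 3 each). Agrg5-2 averaged 1.30 ± 0.16 in distal, 1.46 ± 0.96 in proximal and 1.98 ± 0.48 in medial segments at 5 dpa (SD, n = 3 each), and Agrg4-23 stayed under 0.16 in every sample.

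**Figure D2:**
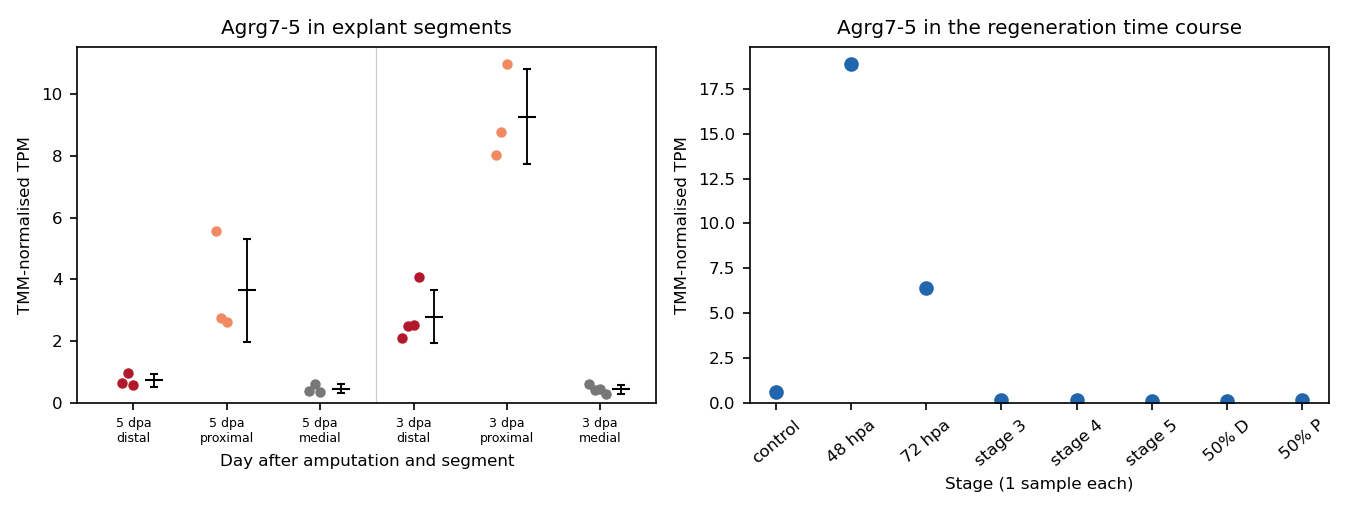
TMM-normalised TPM of Agrg7-5, on the left by day and segment in explants (points are samples, bars the mean and SD) and on the right by stage of the time course, with 1 sample each. Proximal samples at 3 dpa sit between 8.03 and 10.996, above all others in the explants, and in the time course the gene is at 18.9 at 48 hpa and at most 0.16 from stage 3 on.

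Matrix and adhesion type genes gave the 3 genes that fell in distal segments at 5 dpa. Coca1-3 (AFI31984, 40202906 to 40218932, minus strand) and Cola1 (AFI30777, 41321415 to 41338439, minus strand) carry von Willebrand factor A (VWA) domains, which bind other proteins outside the cell, and are named after collagen alpha chains. Agrin-17 (AFI31864, 43767415 to 43840606, minus strand) carries Kunitz and Kazal domains, which are known as protease inhibitors, and is named after the basement membrane protein agrin.

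Coca1-3 was at 11.4, 12.1 and 14.7 in distal, 15.8, 24.7 and 18.9 in proximal and 43.9, 30.6 and 21.7 in medial segments at 5 dpa. All distal samples lay below all proximal and medial ones. The distal mean was 0.396 of the medial mean (log2 fold change of value + 1, -1.22 ± 0.23 SE; limma adjusted p = 0.00181). Without 5 dpa medial replicate 1, the library at 43.9, the change was -0.97, just short of the fold required (limma adjusted p = 0.00951).

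Cola1 was at 8.20, 6.86 and 11.6 in distal, against 23.6, 20.5 and 13.6 in medial segments at 5 dpa, with no overlap (ratio of means 0.462; -1.03 ± 0.24 SE, limma adjusted p = 0.00706). This call sits at the limit of the fold required. It was lost without 5 dpa distal replicate 1 (-0.99) or 2 (-0.88), or without 5 dpa medial replicate 1 (-0.87) or 2 (-0.97), and when only those 2 groups were fitted (limma adjusted p = 0.0764). That last fit called 656 of all genes, against 1173 in the main fit.

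Agrin-17 was at 1.98, 2.69 and 3.52 in distal, 6.35, 4.27 and 9.25 in proximal and 4.55, 11.1 and 10.6 in medial segments at 5 dpa. Every distal sample was lower than every other. The distal mean was 0.312 of the medial mean (-1.32 ± 0.29 SE, limma adjusted p = 0.00524), and the call was lost when only those 2 groups were fitted (limma adjusted p = 0.0672). Distal against proximal segments at 5 dpa reached -0.998 ± 0.29 SE (limma adjusted p = 0.0827), and was called without the 3 libraries with the most genes at 0 (-1.24, limma adjusted p = 0.0479).

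The remaining matrix type genes stood on the same side of 0. Hyal-82 (AFI29757), with EGF and HYR repeats and named after the hyalin layer protein of sea urchins, averaged 3.94 ± 0.96 in distal against 8.46 ± 2.07 in medial segments at 5 dpa (SD, n = 3 each), a change of -0.93 with a limma adjusted p of 0.0054, under the fold required. Without 5 dpa distal replicate 5 (-1.08) or medial replicate 5 (-1.06) it was called, with 1344 and 1383 calls over all genes, against 1173. Ptprf-9 (AFI31497), with fibronectin type III and HYR domains, was at 1.68, 1.56 and 1.69 in distal, against 4.01, 3.70 and 2.43 in medial segments (-0.71, limma adjusted p = 0.015). In all, 6 of 6 tested genes of this group were below 0 in distal against medial segments at 5 dpa (median -0.98, 3 called) and at 3 dpa (median -0.67, none called). They were below 0 also with the same total or with median-of-ratios scaling. In proximal against medial segments, 6 of 6 were below 0 at 5 dpa and 5 of 6 at 3 dpa, with none called. Of all 45 tested genes, 15 were above 0 in distal against medial segments at 5 dpa and 12 at 3 dpa (50.8% and 50.7% of all genes). In proximal against medial segments, 16 and 20 of the 45 were (49.6% and 52.6%). The domain groups were set with earlier results of these data known, so these counts are a description only. The neuronal marker sums given above were lower in the same distal samples. The summed level of 3 ribosomal protein genes was higher in the distal samples of 5 dpa, at 25245 to 42307 in distal and 16427 to 68475 in proximal, against 13815 to 24379 in medial segments, with the top value in proximal replicate 4. At 3 dpa the ribosomal sums overlapped, at 14674 to 21232 in distal, 18399 to 21460 in proximal and 14434 to 19507 in medial segments. The part of either list in these values was not tested.

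At 3 dpa Coca1-3 was at 28.4, 19.3, 17.9 and 18.4 in distal, 23.9, 20.9 and 30.1 in proximal and 33.8, 40.8, 36.1 and 35.5 in medial segments. Both ends stood below the medial range, and distal against medial gave -0.79 (limma adjusted p = 0.0193), under the fold required. Hyal-82 gave -0.75 at 3 dpa (limma adjusted p = 0.013), with distal samples between 4.45 and 6.14, against medial samples between 7.89 and 11.3.

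**Figure D3:**
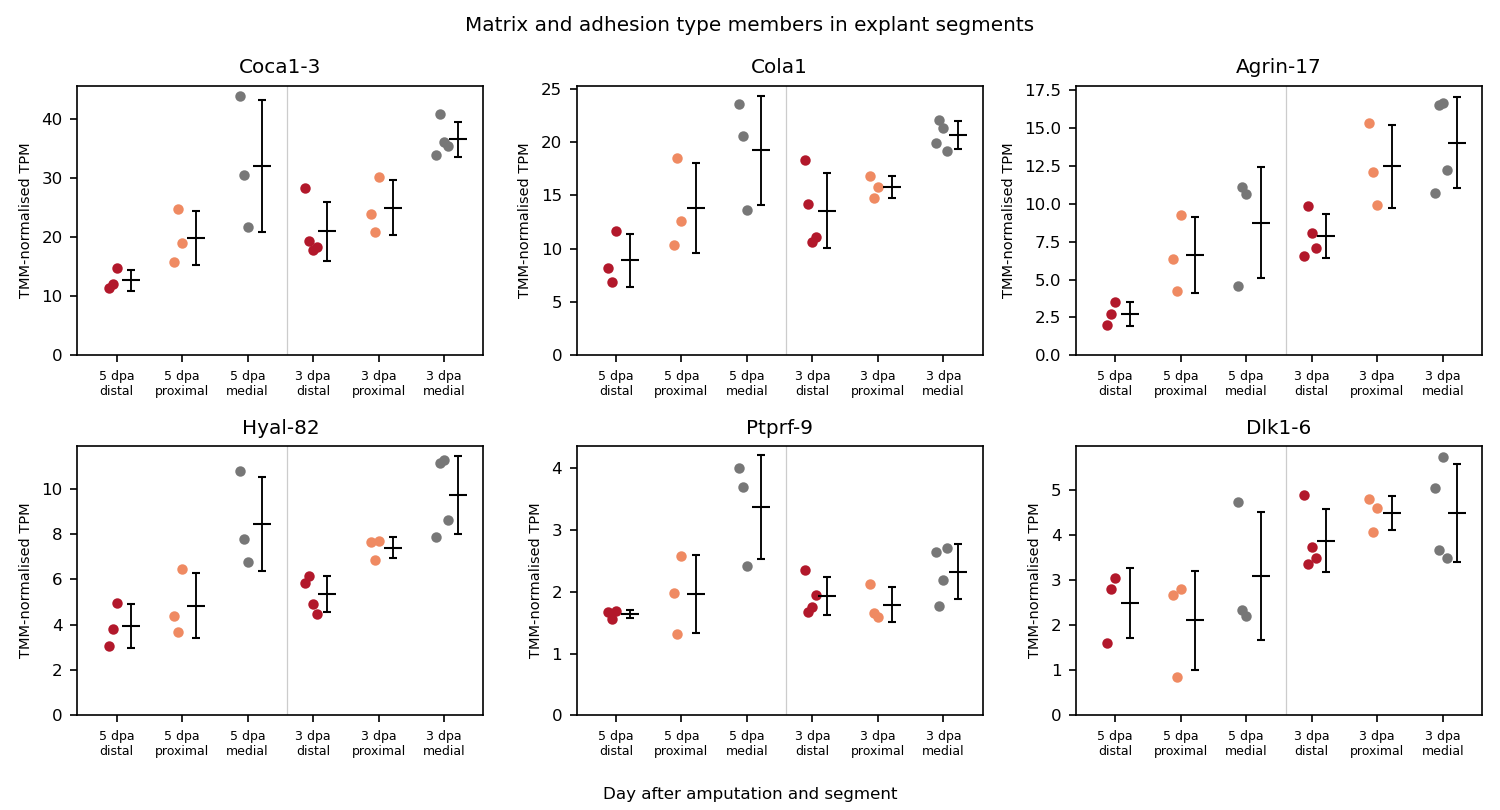
TMM-normalised TPM of 6 matrix and adhesion type genes by day and segment, with samples as points and the mean and SD as bars. Distal samples at 5 dpa lie below all medial samples in Coca1-3 (11.4 to 14.7, against 21.7 to 43.9), Cola1, Agrin-17, Hyal-82 and Ptprf-9, whereas those of Dlk1-6 overlap.

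Among the secreted recognition genes, the lectins had lower means in distal than in medial segments and a complement-like gene had a higher one, and none passed both limits of a call. Lece-18 (AFI30425), named after echinoidin, a C-type lectin of sea urchin body fluid, was at 10.994, 7.78 and 9.79 in distal and 14.2, 24.9 and 10.485 in proximal, against 12.4, 25.4 and 24.6 in medial segments at 5 dpa. The distal samples lay under the medial ones, with a change of -0.996 ± 0.27 SE (limma adjusted p = 0.0177) that stopped just short of the fold required. At the same total for every library it was -1.15, and was called, as it was without 5 dpa distal replicate 1 (-1.10) or 5 (-1.02) or medial replicate 1 (-1.32). At 3 dpa its distal samples ran from 6.82 to 9.13, against 12.0 to 17.3 in medial segments (-0.86, limma adjusted p = 0.0278).

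Lece-19 (AFI30718), its neighbour, averaged 11.6 ± 3.4 in distal, 13.1 ± 2.0 in proximal and 21.2 ± 4.9 in medial segments at 3 dpa (SD, n = 4, 3 and 4). Its distal change at 3 dpa, -0.83, had a limma adjusted p of 0.0626, and at 5 dpa its distal and medial samples overlapped. Co3-6 (AFI31568, 23797034 to 23914984, plus strand) has the full set of alpha-2-macroglobulin domains with the thioester region through which complement C3 attaches to its targets. It was at 23.0, 14.7 and 18.6 in distal, 18.6, 14.5 and 12.1 in proximal and 13.6, 8.99 and 11.5 in medial segments at 5 dpa. Each distal sample exceeded each medial one (ratio of means 1.65; 0.68 ± 0.20 SE, limma adjusted p = 0.0275), again under the fold required.

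At 3 dpa Co3-6 was at 12.2 to 18.6 in distal, against 9.68 to 9.95 in medial segments (0.47, limma adjusted p = 0.104). The serine protease genes Test-5 and Test-6, which carry trypsin and CUB domains, averaged 1.36 ± 0.22 and 2.38 ± 0.59 in distal, against 2.37 ± 1.36 and 4.86 ± 2.33 in medial segments at 5 dpa (SD, n = 3 each). Neither was called, though Test-6 was in proximal against medial segments without 5 dpa proximal replicate 5 (-1.03). Calls over all genes rose from 419 to 1261 in that fit. Summed markers of ciliated cells ran from 61.0 to 69.1 in distal, from 50.6 to 65.0 in proximal and from 44.7 to 45.8 in medial segments at 5 dpa. At 3 dpa they overlapped, at 44.9 to 52.1 in distal, 43.6 to 49.3 in proximal and 37.9 to 53.3 in medial segments. The part of these markers in the values above was not tested.

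None of the 6 tested genes for intracellular sensing and signalling was called in any comparison of segments. Tlr2-17 (AFI31618), a short gene model of 43061758 to 43062160 with a TIR domain, the part by which Toll-like receptors signal, had its highest mean in the healing end. It was at 11.9, 7.98 and 13.1 in distal, against 24.4, 21.1 and 15.1 in proximal segments at 5 dpa (-0.82 ± 0.28 SE, limma adjusted p = 0.152). Its medial samples, 11.5, 19.4 and 19.6, overlapped both. Unchar_13683, also with a TIR domain, had the same order of the ends, with 1.32, 1.28 and 1.48 in distal, against 2.84, 3.10 and 2.46 in proximal segments at 5 dpa (-0.68, limma adjusted p = 0.107). The NACHT gene Unchar_13107, whose domain is that of cytosolic sensor proteins, kept between 4.45 and 5.56 as a mean in all 6 groups.

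Among the other genes, Scrb1-7 (AFI29676) has a CD36 domain and is named after scavenger receptor class B, which takes up lipids and lipoproteins in vertebrates. It was at 9.92, 10.2 and 8.14 in distal, 5.96, 3.65 and 6.13 in proximal and 7.92, 4.22 and 6.95 in medial segments at 5 dpa. The regenerating end was higher than every other sample of that day, and distal against proximal segments gave 0.76 ± 0.19 SE (limma adjusted p = 0.0419), under the fold required. At 3 dpa its distal samples, 8.51 to 10.4, were also above the proximal samples, 5.72 to 6.49. Unchar_13704 (AFI31719), a gene without a listed domain, was at 11.6, 19.96 and 14.6 in distal, against 31.1, 31.2 and 19.2 in proximal segments at 5 dpa (-0.78, limma adjusted p = 0.0807), and these groups overlap. Without 5 dpa proximal replicate 5 this gene was called at -1.004 (limma adjusted p = 0.0167), and calls over all genes went from 303 to 585.

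**Figure D4:**
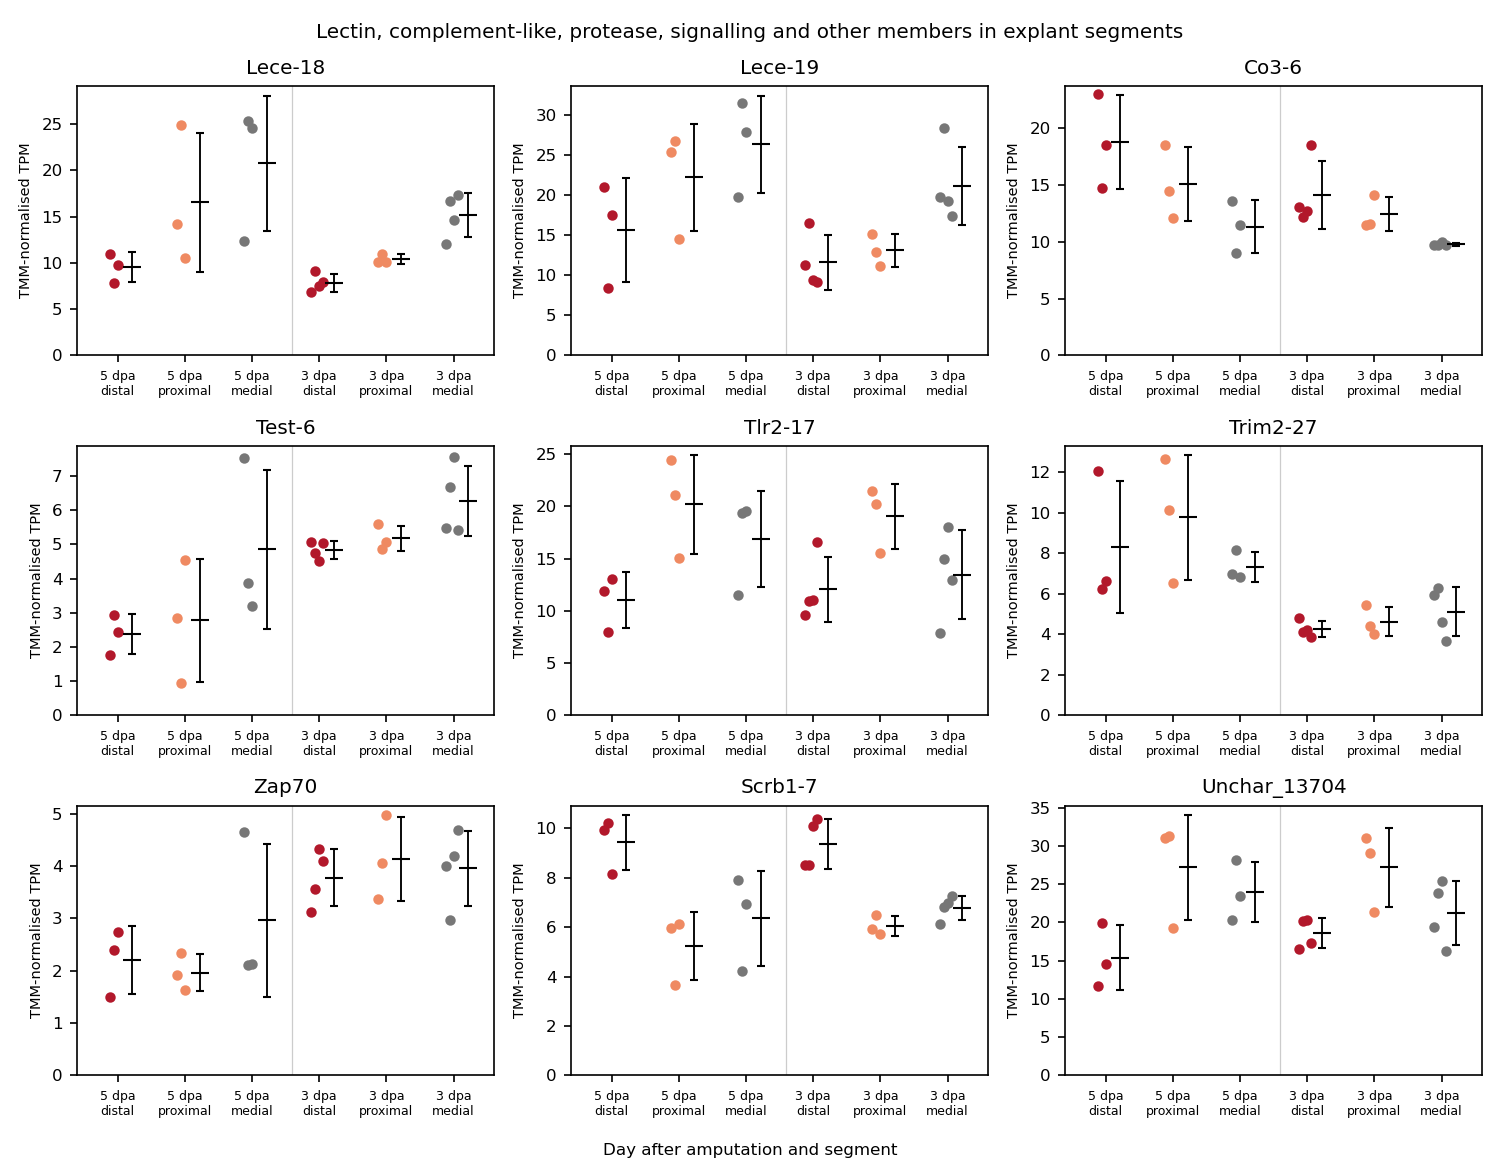
TMM-normalised TPM of 9 genes by day and segment, with samples as points and the mean and SD as bars. Co3-6 and Scrb1-7 have their highest group means in distal segments (samples at 14.7 to 23.0 and 8.14 to 10.2 at 5 dpa). The proximal samples of Co3-6 at 5 dpa, 12.1 to 18.6, overlap its distal ones. Lece-18 and Lece-19 have their highest group means in medial segments. The group means of Trim2-27 are between 7.32 and 9.77 at 5 dpa, against 4.25 to 5.12 at 3 dpa.

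Receptor tyrosine kinase-like genes, cytokines and SRCR genes had no call between segments. In distal against medial segments, 15 of all 45 tested genes were above 0 at 5 dpa and 12 at 3 dpa (50.8% and 50.7% of all genes). Of the 9 tested kinase-like genes, 6 were below 0 in that comparison at 5 dpa (median -0.37) and 8 at 3 dpa (median -0.24). Tie2-25 (AFI30154, 29584647 to 29634309), the most abundant of them, averaged 9.96 ± 1.85 in distal, 10.7 ± 2.8 in proximal and 13.8 ± 2.1 in medial segments at 5 dpa (SD, n = 3 each), and the distal and medial samples overlap. Tie2-38 was at 2.16 ± 0.35 in distal, against 3.76 ± 0.18 in medial segments at 5 dpa (SD, n = 3 each), a change of -0.60 with a limma adjusted p of 0.0502. Tie2-29 was at 2.96 to 3.46 in distal, against 3.75 to 6.53 in medial segments at 5 dpa, without overlap (ratio of means 0.654; limma adjusted p = 0.11), and its groups overlapped at 3 dpa. Its neighbour Tie2-24, with 14566 bases between them, overlapped between distal and medial segments at both days.

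Of the 7 tested SRCR genes, 5 were below 0 at 5 dpa in distal against medial segments (median -0.08), whereas 6 of 7 were below 0 at 3 dpa (median -0.22). At the same total 6 of 7 were below also at 5 dpa (median -0.21). Lg3bp-6 (AFI31867), the highest of them, averaged 2.70 ± 0.99 in distal, 2.43 ± 0.82 in proximal and 3.68 ± 0.53 in medial segments at 5 dpa (SD, n = 3 each). C163b-8 (AFI29970), named after the scavenger receptor CD163, went the other way in distal segments, with 1.08 ± 0.19 in distal, 0.65 ± 0.08 in proximal and 0.48 ± 0.38 in medial samples at 5 dpa (SD, n = 3 each; limma adjusted p = 0.0687 for distal against medial).

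IL17 genes were low and varied within groups. Unchar_13010 (AFI30029, 38035091 to 38042773, plus strand), the highest, was at 1.05, 1.29 and 2.46 in distal, 1.43, 0.80 and 2.78 in proximal and 2.55, 0 and 1.51 in medial segments at 5 dpa. At 3 dpa its medial samples alone spanned 0 to 4.79. It and Il17c-2 (AFI30606) were both listed at 0 in the second medial replicate of each day, which are the libraries with the most genes at 0. Il17c-1, Unchar_13274 and Vegfc, a gene with a PDGF domain, did not pass the filter on low values. Atf4 (AFI30932), a bZIP transcription factor known from stress responses in other animals, averaged 905 ± 238 in distal, 981 ± 250 in proximal and 771 ± 33 in medial segments at 5 dpa (SD, n = 3 each), with overlapping groups.

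How the levels changed with time within a segment was tested as 5 against 3 dpa. In distal segments 2 of the 45 genes were called, Agrin-17 and Agrg7-5, and both fell (0.835% of all genes were called in either direction). In proximal segments Agrg7-5 fell (0.0979% of all genes called). Agrin-17 in distal segments was at 1.98, 2.69 and 3.52 at 5 dpa, against 6.58, 9.88, 8.06 and 7.07 at 3 dpa, without overlap (ratio of means 0.346; -1.26 ± 0.27 SE, limma adjusted p = 0.0212). The fall lost its call without 3 dpa distal replicate 2 (-1.16) or 3 (-1.25), or without 5 dpa distal replicate 1 (-1.11) or 2 (-1.26), at adjusted p between 0.0622 and 0.121.

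Agrg7-5 in distal segments was at 0.64, 0.96 and 0.58 at 5 dpa, against 2.11 to 4.07 at 3 dpa (ratio of means 0.261; -1.12 ± 0.21 SE, limma adjusted p = 0.00836). Without 3 dpa distal replicate 4, the highest of that group, the change was -0.97. In proximal segments Agrg7-5 was at 5.57, 2.74 and 2.62 at 5 dpa, against 8.03, 8.79 and 10.996 at 3 dpa (-1.19 ± 0.22 SE, limma adjusted p = 0.0451). That call was lost without 5 dpa proximal replicate 4 (adjusted p = 0.226) or without 3 dpa proximal replicate 2 (0.108), 3 (0.161) or 4 (0.271), and under most other settings tried. Calls over all genes fell from 21 to between 1 and 4 without each of these replicates. Without 5 dpa proximal replicate 5 the Agrg7-5 call was kept, and Test-6 (-1.18), Dlk1-6 (-1.08), Agrin-17 (-1.09) and Trim2-27 (1.14) were called too. Calls over all genes then rose to 448, and that fit kept proximal replicate 4, the library with the highest total. In medial segments Agrg7-5 was at 0.45 ± 0.15 at 5 dpa, against 0.43 ± 0.14 at 3 dpa (SD, n = 3 and 4), a difference of 0.02 with a 95% interval of -0.42 to 0.46.

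For medial segments, 0 of the 45 genes were called between days by limma (0.00466% of all genes), and 5 had an unadjusted p under 0.05. The lowest was that of Tie1-13, at 2.65 ± 1.39 at 5 dpa, against 7.08 ± 1.96 at 3 dpa (SD, n = 3 and 4; limma adjusted p = 0.139). Without 5 dpa medial replicate 1 it was called, at -1.46, and calls over all genes rose from 1 to 180. Trim2-27 (AFI30373), with RING, TIR and other domains, had its distal samples at 12.1, 6.24 and 6.62 at 5 dpa, against 4.81, 4.11, 4.20 and 3.87 at 3 dpa, and its proximal samples at 12.6, 10.1 and 6.53, against 5.43, 4.43 and 4.01. Its medial samples were at 6.99, 8.16 and 6.83 at 5 dpa, against 5.96, 6.30, 4.58 and 3.65 at 3 dpa. All 3 pairs of groups are apart, and none was called (0.78 in distal, 0.90 in proximal and 0.46 in medial segments, limma adjusted p = 0.079, 0.107 and 0.435). Zap70, a tyrosine kinase with SH2 domains that acts in T cell signalling in mammals, was at 2.21 ± 0.65 at 5 dpa, against 3.78 ± 0.54 at 3 dpa in distal segments (SD, n = 3 and 4; -0.59, limma adjusted p = 0.163).

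Groups with every 5 dpa sample below every 3 dpa sample were found for 12 genes in distal (26.7%, against 10.9% of all genes) and 13 in proximal segments (28.9%, against 11.5%). These comparisons between days depend on scaling. At the same total for every library, the median of all genes moved to -0.30 in distal and -0.34 in proximal segments, and that of the immune genes to -0.46 and -0.51, against -0.18 and -0.26 as deposited. Without 5 dpa proximal replicate 4, the library with the highest total, the proximal median was -0.12. Whether the change from medial tissue itself differed between days was tested as a difference of differences. By limma, 0 of 45 genes were called for distal and 0 for proximal segments (0.0886% and 0.0% of all genes), with 2 at an unadjusted p under 0.05 in each. For Agrg7-5 the proximal difference from medial segments was smaller at 5 than at 3 dpa by -1.21 ± 0.30 SE (limma adjusted p = 0.929) and the distal one by -1.14 ± 0.29 SE (limma adjusted p = 0.245).

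In the time course, 29 of the 67 genes reached a value of 1 in at least 1 of the 8 samples. With 1 sample per stage there is no replicate check, and differences are given as values. A gene was counted when its log2(value + 1) differed from control by more than 1, that is past 2-fold on that scale. Of the 29 genes, 15 (51.7%, against 25.5% of all genes that reached 1) had their highest value in the control, 7 (24.1%, against 12.8%) at 48 hpa and 3 (10.3%, against 8.72%) at 72 hpa. The other 4 were highest later. This order depends on the scaling. At the same total for every sample, 4 of 31 genes (12.9%, against 5.23%) were highest in the control, 9 (29.0%, against 14.5%) at 48 hpa, 11 (35.5%, against 26.5%) at 72 hpa and 7 (22.6%, against 34.8%) in 50% P.

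Against control, 5 genes were past 2-fold higher and 8 lower at 48 hpa (14.1% and 14.7% of all genes), and 4 higher and 10 lower at 72 hpa (15.1% and 16.7%). At stage 3 there was 1 higher and 14 lower (16.7% and 22.5% of all genes), at stage 4 there were 3 and 14 (19.7% and 23.8%), and at stage 5 there were 1 and 13 (19.5% and 23.8%). The 50% D sample had 2 higher and 13 lower (18.4% and 22.4%) and the 50% P sample 1 and 12 (14.3% and 18.8%). The early split depends on the scaling. The column totals run from 551379 to 1866500. At the same total, 9 of 31 genes were higher and 1 lower at 48 hpa (5576 and 533 of all 16109 genes). There were 7 higher and 2 lower at 72 hpa (6954 and 509 of all genes), and 6 and 6 in 50% P (7582 and 837). The median of all genes then stood at 0.67, 0.86 and 0.94 in these samples, and that of the immune genes below it, at 0.51, 0.31 and 0. As deposited, the immune genes' median was -0.64, -0.58 and -0.72, against 0.04, 0.04 and 0.00 for all genes. At stages 3 to 5 the lower immune genes outnumbered the higher ones under both scalings. The same total gave 1 higher and 11 lower at stage 3, 2 and 9 at stage 4, and 2 and 11 at stage 5. Over all genes, that scaling gave 1626 higher and 2549 lower, 2847 and 2389, and 5068 and 1865 in the same order.

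Genes high soon after amputation were led by Agrg7-5, whose control value of 0.57 was followed by 18.9 and 6.41 at 48 and 72 hpa and by 0.09 to 0.16 from stage 3 on. Co3-6 had 1.66 in control tissue, 5.66 and 8.78 in the 48 and 72 hpa samples, and between 0.56 and 1.54 later. Of the 4 IL17 genes, 3 had their highest value at 48 hpa. Unchar_13010 was listed at 0 in the control, stood at 2.67 and 2.15 at 48 and 72 hpa and at 1.18 at most later, Il17c-2 was listed at 0 in the control and stood at 1.27 at 48 hpa, and Il17c-1 had 1.05 in control tissue, 1.94 and 0.17 at 48 and 72 hpa, and was listed at 0 from stage 3 on. Scrb1-7 kept its level, at 1.03 in the control, 6.44 at 72 hpa and between 3.85 and 5.96 from stage 3 on. Atf4 was at 102 in the control and between 150 and 217 in all regenerating samples.

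In the deposited scaling, genes with their highest value in the control included those of matrix, lectin and Toll type. Lece-18 had 9.23 in control tissue, 1.22 and 0.71 at 48 and 72 hpa and no more than 0.74 later, and Lece-19 had 5.39, then 2.63 and 0.38 at 48 and 72 hpa. Coca1-3 stood at 15.8 in the control, 5.27 and 5.53 at 48 and 72 hpa and between 0.53 and 2.77 later, and Cola1 at 8.71, 3.11 and 1.67 and then between 0.31 and 1.68. Agrin-17 had 10.7 in control tissue, 3.62 and 4.56 at 48 and 72 hpa and no more than 0.26 from stage 3 on. The first 4 samples read 11.9, 6.80, 2.08 and 2.97 for Tlr2-17 and 29.8, 20.9, 10.7 and 0 for Unchar_13704. Several of these early differences depend on the scaling. At the same total, log2(value + 1) at 48 hpa was above control for Tlr2-17 (0.35), Lece-19 (0.13) and Unchar_13704 (0.66), and at 72 hpa it was above control for Agrin-17 (0.24) and close to it for Coca1-3 (-0.01) and Unchar_13704 (0.02). Lece-18 and Cola1 were below control at both times, at -1.24 and -1.51 and at -0.22 and -0.68, and at stage 3 all 7 of these genes were below control, at -1.57 to -4.08. The tissue dissected also changes between 72 hpa, where the last arm segment is included, and stage 3, where only new tissue is, and its part in these values cannot be told apart from time.

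**Figure D5:**
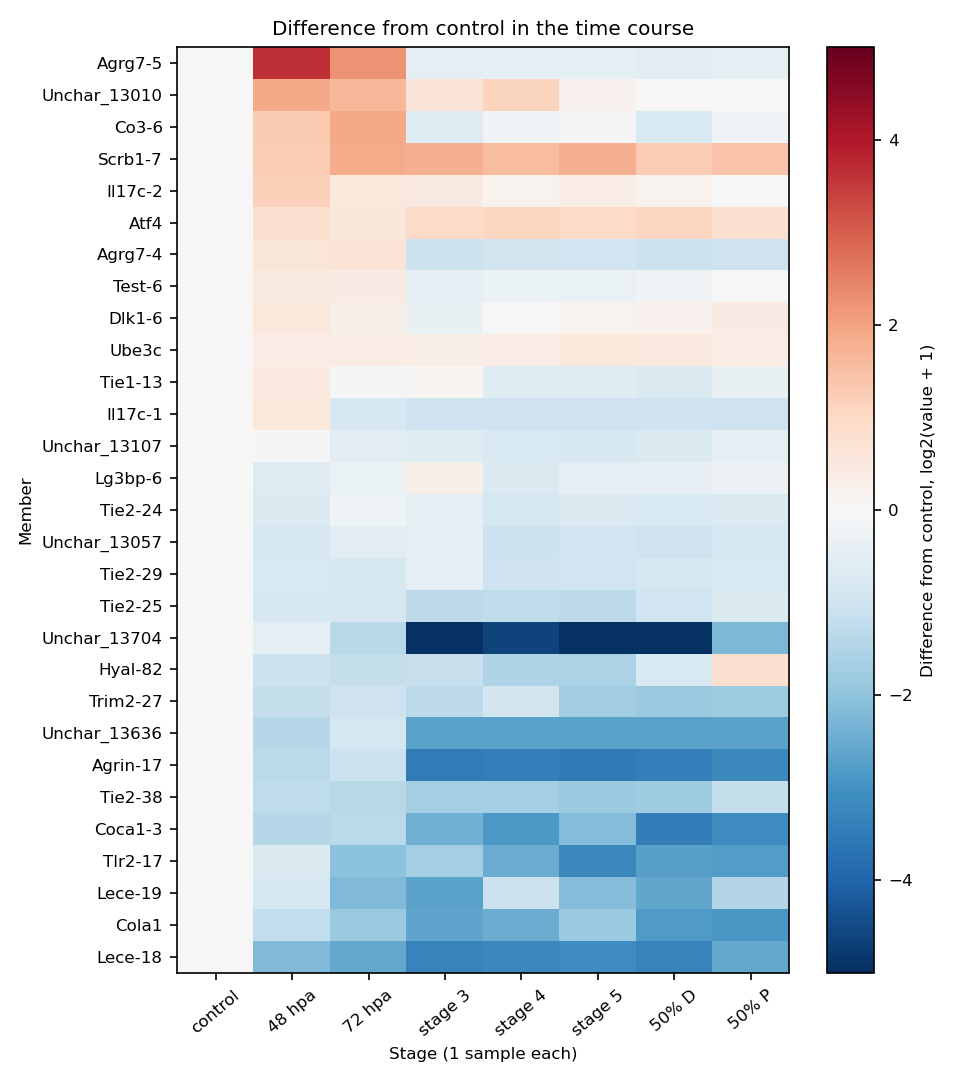
Difference from control in log2(value + 1) for the 29 genes that reached a value of 1 in the time course, in the deposited scaling, ordered by their mean difference at 48 and 72 hpa, with 1 sample per column. Agrg7-5 leads the rows that are higher at 48 and 72 hpa, Scrb1-7 and Atf4 stay higher in every later sample, and Lece-18, Cola1, Lece-19, Tlr2-17 and Coca1-3 close the list.

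A late sample stood out for Hyal-82, which was at 2.08 in the control, between 0.04 and 0.48 from 48 hpa to stage 5, at 0.80 in 50% D and at 4.47 in 50% P. Of the kinase-like genes in the deposited scaling, Tie2-38 was at 3.25 in the control and between 0.17 and 0.87 afterwards. Tie2-25 was at 5.06 in the control and between 1.42 and 2.71 afterwards. These differences depend on the scaling. At the same total, log2(value + 1) at 48 hpa was above control for Tie2-25 (0.13) and below it for Tie2-38 (-0.48). Agrg7-4 had 1.54 in control tissue, 2.81 and 3.07 at 48 and 72 hpa, and 0.35 at most later. Only 1 of the 15 SRCR genes, Lg3bp-6, reached 1 in any stage, with 1.21 at stage 3, against 0.80 in the control.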

How the data were processed

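Expression was taken from the 2 tables the authors deposited, whose values are a normalised signal. The authors pseudo-aligned paired-end RNA-seq reads, from poly(A)-selected RNA in the explants, to their gene models with kallisto, took TPM and rescaled them between samples with TMM. The methods state TMM for the time course, and for the explants it is read from the table's name. Such values are not counts, so depth is unknown and no count model was used. No per-sample column was left out, and the authors' own columns of clusters and differential expression in the gene table were not used.

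Samples were grouped by the segment, day or stage in their labels. The 20 explant samples, in 6 groups, were fitted with limma 3.58.1 (R 4.3.3) on log2(value + 1) with an intensity trend, over genes that reached 1 in 3 or more samples, and adjusted over all genes tested. The step was tested on simulated data. The labels do not say whether replicates are separate cultures, so p-values measure the spread between these pooled samples. The time course has 1 sample per stage and was compared without a test. Other steps used Python 3.11.15, numpy 2.4.6, pandas 2.3.3 and matplotlib 3.10.9.

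Genes of chromosome 1 on the immune list, in the readable part of the gene table, were matched by identifier. By rule, 5 identifiers were left out, of which 3 stand on the list. Domain groups follow Pfam names. Named genes were those called in at least 1 explant comparison, the highest of each domain group, and the 5 with the largest rise and the 5 with the largest fall from control to 48 and 72 hpa, and further ones were named after their values were seen. The members, domain groups, lists and markers were chosen with earlier results of these data known. Alternatives were a pseudocount of 0.1, no filter or a minimum of 5, a fit of only the groups compared, scaling by the same total and by median of ratios, no trend, each replicate left out, a replicate block and, chosen after the data were seen, leaving out the 3 libraries with the most genes at 0. Coordinates are those of the gene table, in the assembly of the study. No sequences are shown.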

Additional observations from a re-analysis of the deposited data

Results flagged for a closer look

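Among 32 groups of 4 samples at 3 dpa (the named genes in distal and medial segments), 2 had a sample far from the other 3, and chance alone marks about 1 group in 20. Co3-6 was at 18.6 in distal replicate 4, while the other distal samples were between 12.2 and 13.1. Coca1-3 was at 28.4 in distal replicate 1, while the others were between 17.9 and 19.3. The change of Agrg7-5 from medial segments differed between the 2 ends of the explant, lower in distal than in proximal segments by -1.45 at 3 dpa and by -1.38 at 5 dpa on log2(value + 1), both past the limma threshold given above.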

How the results depend on the processing

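Of the 11 gene results called, over 168 alternatives, 142 kept direction and call and 26 lost the call, and none reversed; of 72 further results at an unadjusted p under 0.05, 18 of 1075 alternatives added a call. Counts of called genes changed as follows. In distal against medial segments at 5 dpa, 3 genes became 5 with a pseudocount of 0.1, 1 with only the groups compared and 2 to 5 over replicates left out. Calls over all genes moved too, from 1173 to 1662, 656 and 871 to 1385 in the same order. In proximal against medial segments at 5 dpa, 1 became 0 with only the groups compared and 1 to 2 over replicates left out. Over all genes, 419 calls became 15 and 166 to 1261. In distal against proximal segments at 5 dpa, 1 became 0 with only the groups compared or the same total, 2 with the replicate block (Agrin-17 added, at -1.34 with a limma adjusted p of 0.00776) or without the 3 libraries with most genes at 0, and 1 to 2 over replicates left out. Over all genes, 303 calls became 10 and 183, 158 and 211, and 140 to 585, in the same order. Between days, 2 distal calls became 1 to 2 and 0 medial calls became 0 to 1 over replicates left out. Over all genes, 179 distal calls became 100 to 175 and 1 medial call became 0 to 180. The 1 proximal call became 0 with a pseudocount of 0.1, no filter, a minimum of 5, only the groups compared, the median of ratios and without the 3 libraries, and 0 to 5 over replicates left out. Over all genes, 21 calls became 20, 16, 50, 0, 16 and 1 in that order, and 1 to 448 over replicates left out. In the time course, 14 genes past 2-fold at 72 hpa became 9 at the same total, 17 at stage 4 became 26 with a pseudocount of 0.1 and 11 at the same total, and 14 at stage 5 and 15 in 50% D became 25 and 24 with a pseudocount of 0.1. Over all genes, 2325 higher and 2572 lower at 72 hpa became 6954 and 509 at the same total. At stage 4, 3042 and 3677 became 4880 and 4967 with a pseudocount of 0.1, and 2847 and 2389 at the same total. With a pseudocount of 0.1, 3005 and 3672 at stage 5 became 4911 and 4929. In 50% D, 2838 and 3460 became 4828 and 4711 with it. Same-numbered samples of a day shared deviations in 13 of 17 pairs (correlation over 0.1, range -0.04 to 0.41), and 16 of 19 samples correlated best with their own number. The paper states that explants were cut into 3 sections, so same-numbered segments may come from the same batch, which the labels do not state. The main fits used no block, and their p-values treat the segments as independent samples. The block changed no other count of immune genes called, and days cannot be compared under it. The causes of these moves were not tested. Low values limit the IL17 and SRCR genes most, and depth is unknown.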
